A study of Mus musculus with 12 samples.

Results

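The Mir-95 family is a small group of related miRNA genes, and it was represented in the deposited hippocampal table by 3 of 513 rows, the guide arm Mir-95-P2_3p and both arms of Mir-95-P4 (the guide Mir-95-P4_3p and the passenger Mir-95-P4_5p*). The rows were taken by name, namely every row whose first name element is Mir-95 or begins with Mir-95-, and no other paralogue of the family has a row. The family and its comparison with Mir-448_3p and Mir-1298_5p were chosen by the levels in these same 12 libraries, in which Mir-95-P4 had been seen to go up and down with miRNAs of the choroid plexus. That co-variation is therefore given below as a description with no test. Row names follow MirGeneDB, in which P marks a paralogue, 5p and 3p the strand of the hairpin and an asterisk the passenger arm, the strand that is usually discarded when the guide is loaded.

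Each of 12 small RNA libraries came from the hippocampus of 1 male wild-type mouse of the inbred strain C57BL/6J. The exercised lineage held 6 grandsons, through the male line, of males that had exercised, and the sedentary lineage held 6 grandsons of sedentary males. Exercise is labelled for the grandfathers alone, the labels state no age, and the comparison asks whether a grandfather's exercise is associated with the miRNAs of the grandson's hippocampus. Values are normalized counts, that is, reads of a row divided by 1 size factor per library. Reads were inferred, taking the step of which a library's values are whole multiples as 1 read. Depth so inferred was 6862623 to 10219856 reads per library on all rows. Submitter codes share a stem in sets of 3 (R31 and R41 in the exercised, S11 and S41 in the sedentary lineage). The labels do not say what a stem means, and if mice with 1 stem are related, the 6 mice of a lineage are fewer than 6 independent animals.

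A miRNA is cut from a hairpin in a longer transcript, and its bases 2 to 8, the seed, pair with the messages it represses. The choroid plexus is the epithelium that secretes cerebrospinal fluid into the ventricles. It lies against the hippocampus and is known for very high expression of Htr2c, a serotonin receptor gene with a set of miRNA genes in its introns. Mir-448 and Mir-1298 belong to that set. Another part of the ventricle lining, the ependyma, carries motile cilia and is known for miRNAs of the Mir-34 family. Bulk libraries do not show whether a Mir-34 read came from the ependyma or from the choroid plexus, so Mir-34 rows are not taken here to part them.

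The table does not pair MirGeneDB names with miRBase names. Mir-95-P2 is read here as mir-421 and Mir-95-P4 as mir-1264, from knowledge of the nomenclature. This reading was not checked against MirGeneDB, so loci and sequences hold under it, whereas every value belongs to the row as named. In GENCODE M21 on GRCm38, the assembly of mm10, Mir421 lies at chrX:103572921-103572996 on the minus strand, in an intron of Ftx, a long noncoding RNA gene of the X-inactivation centre. Mir374b lies 63 bases away, also in an intron of Ftx. Mir1264 lies at chrX:147010601-147010686 on the plus strand, in an intron of Htr2c. Besides Mir1264, the annotation places 6 miRNA genes inside Htr2c. In order of distance from Mir1264 these are Mir1912 (1073 bases away), Mir764 (8234 bases), Gm22650 (11091 bases), Mir1298 (54218 bases), Gm24627 (96252 bases) and Mir448 (147523 bases). No row of the table is named Mir-764, and the loci of the Gm genes were not matched to rows. The loci of the 2 family genes are thus 43.4 megabases apart on chromosome X.

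The mature sequences of the Htr2c group are shown because these are the miRNAs whose levels are compared, with the seed in capitals, from RefSeq on GRCm38.p6. The miR-421-5p strand, from the passenger side of its hairpin and without a row in the table, is added for the other paralogue.
mmu-miR-1264-3p: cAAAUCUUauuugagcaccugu
mmu-miR-1912-3p: cACAGAACaugcagugagaacu
mmu-miR-448-3p: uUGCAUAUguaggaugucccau
mmu-miR-1298-5p: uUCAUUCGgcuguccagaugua
mmu-miR-421-5p: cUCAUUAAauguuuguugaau
The 5 seeds all differed from each other, so among the strands shown that have a row, likeness in level is not likeness in seed. The seeds of Mir-95-P2_3p and Mir-95-P4_5p* were not compared.

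The Mir421 hairpin is shown to compare the 2 paralogues, with the stretch that aligns to miR-1264-3p in capitals.
Mir421 hairpin: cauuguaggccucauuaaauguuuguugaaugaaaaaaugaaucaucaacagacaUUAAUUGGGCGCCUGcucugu
miR-1264-3p, aligned stretch: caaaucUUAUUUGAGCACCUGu
Of 15 aligned bases, 12 were identical, and the stretch covers bases 7 to 21 of miR-1264-3p, mostly outside the seed. Among 1005 mouse hairpins in the RefSeq table, 20 others reached the same local alignment score or a higher one, so this alignment does not by itself settle that the pair are paralogues.

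Mir-95-P2_3p, the Ftx-hosted member under the reading above, was the steady row of the family. It stood between 269 and 395 normalized counts in the exercised lineage (median 307) and between 312.2 and 438 in the sedentary lineage (median 342). The lineages overlapped widely, and the sedentary mouse 6 held the highest value. Over all 12 libraries the mean was 335 ± 46.0 (SD), with a 1.63-fold range. Reads behind single values ran from 278 to 483, for which counting alone gives a coefficient of variation of 5.49% on average, against 13.7% measured. Its SD of 0.19 on the log2(value + 1) scale placed it 376 of 474 rows in order of variability, counted from the most variable, among rows with a mean of at least 10 normalized counts.

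Mir-95-P4_3p, the guide of the other paralogue, varied far more from mouse to mouse. Its values ran from 116 to 405 in the exercised lineage (median 164) and from 86.1 to 476 in the sedentary lineage (median 200). High and low libraries occurred in both lineages: exercised mice 1 and 3 held 389 and 405, and sedentary mice 2 and 1 held 476 and 287. The lowest value belonged to sedentary mouse 6 and the next to sedentary mouse 3, with 100. Over the 12 libraries the mean was 227 ± 132 (SD) and the range 5.52-fold. Its SD of 0.82 log2 ranked 52 of 474, and reads behind single values ran from 81 to 501, with a counting coefficient of variation of 7.49% on average against 58.4% measured.

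The passenger Mir-95-P4_5p* spread just as widely. It lay between 154 and 646 normalized counts in the exercised lineage (median 167) and between 140 and 542 in the sedentary lineage (median 341). In the exercised lineage 4 mice lay close together, at 154 to 176, and mice 1 and 3 stood at 350 and 646. In the sedentary lineage mice 4 and 6 were low, with 159 and 140, and mice 1, 2 and 5 were high, with 488, 542 and 409. The mean was 304 ± 179 (SD, n = 12), the range 4.63-fold and the SD 0.82 log2 (rank 53 of 474).

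In order of mean level, Mir-95-P2_3p came first, then Mir-95-P4_5p*, then Mir-95-P4_3p, at ranks 234, 243 and 266 of 513 rows. Within a library, Mir-95-P2_3p stood above Mir-95-P4_5p* in 7 of 12 libraries, with a mean log2 ratio of 0.35 ± 0.90 (SD). Mir-95-P4_5p* stood above Mir-95-P4_3p in 9 of 12, with a mean log2 ratio of 0.42 ± 0.48. Both mean ratios are smaller than their SD over libraries, and neither was tested. Each read stands for 1 mature strand, so no length scaling applies. How well each strand was ligated and amplified was not measured, so levels of different rows are compared only loosely.

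**Figure D1:**
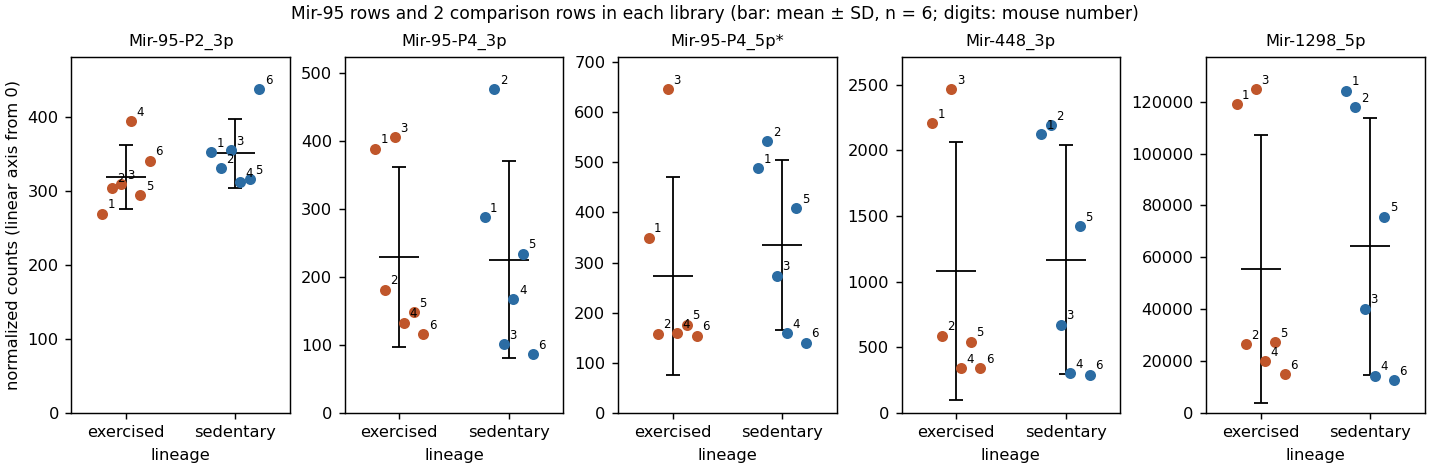
Normalized counts of the 3 Mir-95 rows, Mir-448_3p and Mir-1298_5p (vertical axes, linear from 0) in each library of the exercised (orange) and sedentary (blue) lineage; points are mice, numbered, and bars give the mean ± SD (n = 6). Mir-95-P2_3p stays between 269 and 438, while both Mir-95-P4 arms and both comparison rows have high and low mice in each lineage.

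The strand of Mir-95-P4 named as passenger was the more abundant one in most libraries. The 5p strand had more normalized counts than the 3p strand in 4 of 6 libraries of the exercised and 5 of 6 of the sedentary lineage. The ratio of 5p to 3p ran from 0.870 to 1.59 in the exercised lineage (median 1.20) and from 0.956 to 2.73 in the sedentary lineage (median 1.66). The highest ratio belonged to sedentary mouse 3, in which 274 normalized counts of the 5p strand stood beside 100 of the 3p strand. The lineages overlapped, and their difference in this ratio was not tested.

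**Figure D2:**
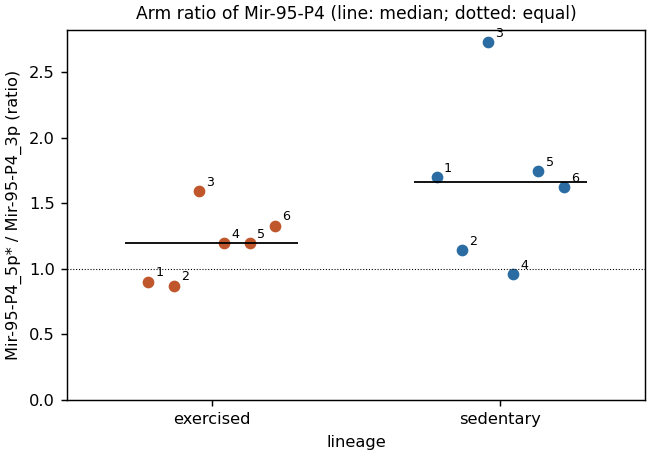
Ratio of Mir-95-P4_5p* to Mir-95-P4_3p (vertical axis, no unit, linear from 0) in each library by lineage; points are mice, numbered, solid lines are medians and the dotted line marks equal strands. Of 12 points, 9 lie above the dotted line, and sedentary mouse 3 is the highest at 2.73.

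Both comparison rows are carried by Htr2c and both split the libraries. Mir-1298_5p, the most abundant of the group, lay between 14859 and 124745 normalized counts in the exercised lineage (median 26790) and between 12623 and 124316 in the sedentary lineage (median 57925). Mir-448_3p lay between 337 and 2464 (median 564) and between 291 and 2190 (median 1045). In 5 libraries (exercised mice 1 and 3, sedentary mice 1, 2 and 5) Mir-1298_5p was at 75649 or more, and in the other 7 it was at 40200 or less. The widest step between neighbouring libraries in Mir-1298_5p, 1.88-fold, lies between these sets, and the next widest was 1.56-fold. The cut was drawn from these same values, so it describes the libraries and does not show 2 distinct kinds of them. In a bulk sample such as these, fewer cells of a type and less of its RNA per cell cannot be told apart.

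Mir-95-P4 was high and low in the same libraries as these rows, and Mir-95-P2_3p was nearly level across them. The 5 libraries high in Mir-1298_5p held the 5 highest values of Mir-95-P4_3p, from 234 to 476, and the 5 highest of Mir-95-P4_5p*, from 350 to 646. For Mir-95-P4_3p, Pearson's r was 0.87 and Spearman's rho 0.79 with Mir-1298_5p, and 0.89 and 0.83 with Mir-448_3p (log2 values, n = 12). Mir-95-P4_5p* had r of 0.96 and rho of 0.92 with Mir-1298_5p, and 0.95 and 0.89 with Mir-448_3p. For Mir-95-P2_3p the same values were negative, r of -0.44 and rho of -0.36 with Mir-1298_5p, and -0.47 and -0.43 with Mir-448_3p. Points share library and size factor in each pair, and with scaling by library totals rho was 0.85, 0.92 and -0.22 with Mir-1298_5p for Mir-95-P4_3p, Mir-95-P4_5p* and Mir-95-P2_3p.

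The libraries were unevenly spread, so the pooled values lean on the step between the 5 high and the 7 lower ones. Within the lower set, the strands of Mir-95-P4 parted in their relation to the 2 comparison rows. Among the 7 libraries of this set, Mir-95-P4_5p* still had r of 0.83 and rho of 0.75 with Mir-1298_5p, whereas Mir-95-P4_3p had r of 0.13 and rho of 0.18. With Mir-448_3p, r was 0.73 for Mir-95-P4_5p* and 0.20 for Mir-95-P4_3p. The strands did not part in this way with Mir-1912_3p, another Htr2c row. In the same 7 libraries Mir-95-P4_3p had r of 0.63 and rho of 0.57 with it, and Mir-95-P4_5p* had 0.46 and 0.54. The lower set holds sedentary mouse 3, where Mir-95-P4_3p was at 100 beside the highest Mir-1298_5p of the set (40200), and sedentary mouse 4, where it was at 167 beside 14239. The relation of Mir-95-P4_3p to Mir-1298_5p therefore rests on the 5 high libraries. Within each lineage (n = 6) its r was 0.99 for exercised-lineage and 0.80 for sedentary-lineage mice, and without the 2 libraries farthest from the median of Mir-1298_5p it was 0.85 (n = 10). For Mir-95-P4_5p* these were 0.93, 1.00 and 0.95, and for Mir-95-P2_3p they were -0.64, -0.40 and -0.53.

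**Figure D3:**
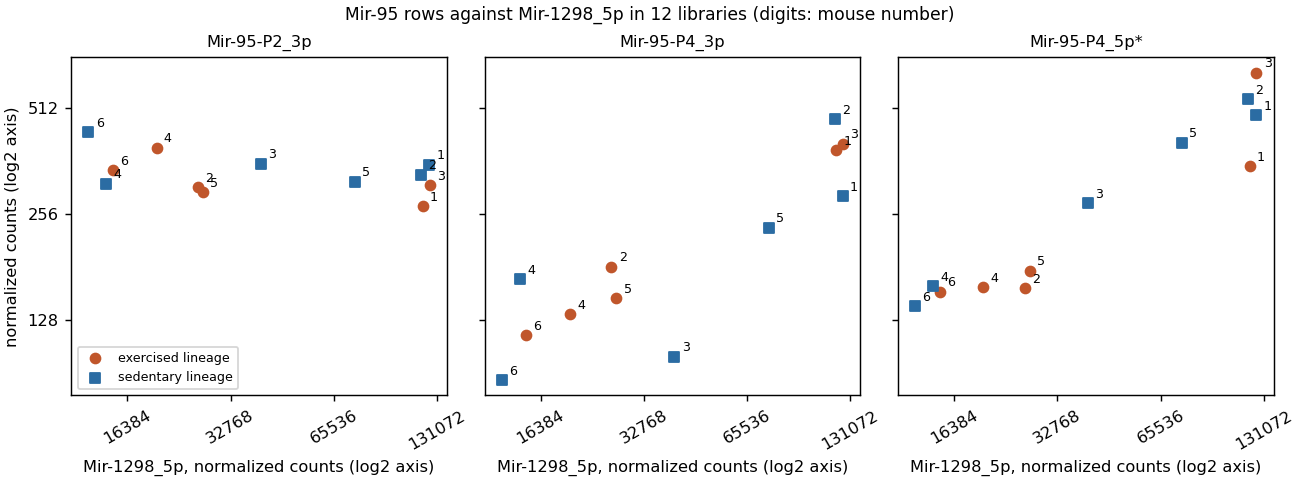
Each Mir-95 row (vertical axis, normalized counts, log2 axis) against Mir-1298_5p (horizontal axis, normalized counts, log2 axis) in 12 libraries; circles are the exercised and squares the sedentary lineage, with mouse numbers. Both Mir-95-P4 strands are highest in the 5 libraries with Mir-1298_5p at 75649 or more, Mir-95-P4_3p is scattered among the other 7, and Mir-95-P2_3p is nearly level.

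Mir-95-P4 spanned a smaller range than its comparison rows. Mir-1298_5p differed 9.88-fold and Mir-448_3p 8.47-fold between the lowest and the highest library, against 5.52-fold and 4.63-fold for the 3p and 5p strands of Mir-95-P4. A doubling of Mir-1298_5p went with a 1.45-fold higher Mir-95-P4_3p and a 1.50-fold higher Mir-95-P4_5p* on a straight line through log2 values, and with a 0.958-fold level of Mir-95-P2_3p. Per 1000 normalized counts of Mir-1298_5p, Mir-95-P4_3p stood at 2.31 in sedentary mouse 1 and at 11.7 in sedentary mouse 4, its lowest and highest ratios. All 5 libraries high in Mir-1298_5p lay at 4.04 or below, and of the other 7 only sedentary mouse 3, at 2.50, did so too.

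Each family row had different nearest neighbours among the 471 other rows tested. For Mir-95-P4_3p, the most like was Mir-1912_3p, whose gene is the nearest miRNA neighbour of Mir1264 in Htr2c (rho 0.92, r 0.95, n = 12). It was followed by Mir-34-P2a_5p, of the family known from ciliated cells (rho 0.90), and by Mir-448_3p. Mir-1298_5p was in 4th place. For Mir-95-P4_5p*, the order was Mir-34-P2b_5p (rho 0.95), Mir-1298_5p (rho 0.92) and Mir-34-P2b_3p* (rho 0.90). Mir-1912_3p, a low row of 17 to 215 reads per library, was in 6th place for this strand (rho 0.88). For Mir-95-P2_3p, the order was Mir-148-P1_3p (rho 0.83), Mir-7-P3_5p (rho 0.81) and Mir-351_5p (rho 0.78). Mir-374-P2_5p, from the gene beside Mir421 in Ftx if it is mir-374b, was only in 128th place for Mir-95-P2_3p (rho 0.29, r 0.34), and its passenger Mir-374-P2_3p* in 332nd (rho -0.26). Mir-374-P2_5p was as steady as Mir-95-P2_3p, at 572 ± 85.9 normalized counts (SD, n = 12) with a 1.68-fold range.

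The choroid plexus and multiciliated marker lists went up and down with Mir-95-P4 and not with Mir-95-P2_3p. The choroid plexus list had rows for 4 of 6 families, the names Mir-1264 and Mir-764 having none, and its 7 rows summed to 30207 to 163927 normalized counts in exercised-lineage and 29006 to 164916 in sedentary-lineage mice. Its rho over the 12 libraries was 0.74 with Mir-95-P4_3p, 0.89 with Mir-95-P4_5p* and -0.21 with Mir-95-P2_3p. Mir-1298_5p alone held 70.0% of the choroid plexus sum, and the 2 most abundant rows together held 96.7%. The 5 rows of the multiciliated list (Mir-34-P2 and Mir-34-P3) summed to 14529 to 39284 and 12780 to 47504, with rho of 0.77, 0.95 and -0.24. Mir-34-P2b_5p alone held 97.3% of the multiciliated sum, and by itself it had the same rho of 0.77, 0.95 and -0.24. Row by row, 7 of 7 choroid plexus and 5 of 5 multiciliated rows had rho above 0 with each Mir-95-P4 strand, and 6 of 7 and 5 of 5 had rho below 0 with Mir-95-P2_3p. The choroid plexus list is no independent check, since it contains both comparison rows. Apart from the arms of Mir-204-P1, read as mir-204 in an intron of Trpm3, its rows are all of Htr2c-hosted miRNAs. Mir-204-P1_5p had rho of 0.59, 0.78 and 0.08 with Mir-95-P4_3p, Mir-95-P4_5p* and Mir-95-P2_3p, and Mir-204-P1_3p* had 0.69, 0.69 and -0.38. Among the 7 libraries lower in Mir-1298_5p, Mir-204-P1_5p had r of -0.71 with Mir-95-P4_3p and 0.62 with Mir-95-P4_5p*.

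For lists of other cells, the sums and the single rows often went different ways, and here too 1 or 2 abundant rows made up most of each sum. The 16 rows of the neuron list summed to 925346 to 1151485 normalized counts in exercised-lineage and 918025 to 1332656 in sedentary-lineage mice. The sum had rho of -0.61 with Mir-95-P4_3p, -0.35 with Mir-95-P4_5p* and 0.57 with Mir-95-P2_3p. Mir-128_3p and Mir-218_5p, however, held 87.1% of it, and rho was above 0 with Mir-95-P4_3p for 8 of 16 rows and below 0 with Mir-95-P2_3p for 10 of 16. Mir-124_3p, a miRNA known for its abundance in neurons, had 0.31 with Mir-95-P4_3p and -0.64 with Mir-95-P2_3p, each opposite in sign to the sum. The neuron list therefore has no single direction.

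The microglia and leukocyte sum had rho of -0.63 with Mir-95-P4_3p, -0.66 with Mir-95-P4_5p* and 0.45 with Mir-95-P2_3p. Mir-150_5p held 69.1% of it and had -0.78 with Mir-95-P4_3p, whereas 5 of 8 rows had rho above 0, the highest being Mir-142-P1-v4_5p at 0.67. The endothelial sum had -0.62, -0.42 and 0.50, following Mir-126_3p (-0.64 with Mir-95-P4_3p), while Mir-126_5p had 0.01 with Mir-95-P4_3p and -0.27 with Mir-95-P2_3p. The mural cell list (Mir-143 and Mir-145) was the one of these 4 lists whose rows all went the way of its sum, with -0.66, -0.52 and 0.49. Its 4 rows were all below 0 with both Mir-95-P4 strands and above 0 with Mir-95-P2_3p.

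The remaining lists did not part the paralogues clearly. The oligodendrocyte sum had rho of -0.23 with Mir-95-P4_3p, 0.06 with Mir-95-P4_5p* and 0.22 with Mir-95-P2_3p. The red cell sum was above 0 with all 3 rows, at 0.15, 0.36 and 0.48. Other epithelial miRNAs (the Mir-8 and Mir-96 families) had 0.16, 0.08 and -0.10. None of the rows in any of these lists was at 0 in all libraries, and the neuronal sums were the highest of these lists, in hippocampus as labelled. The part of cell composition in the levels of either paralogue was not tested.

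**Figure D4:**
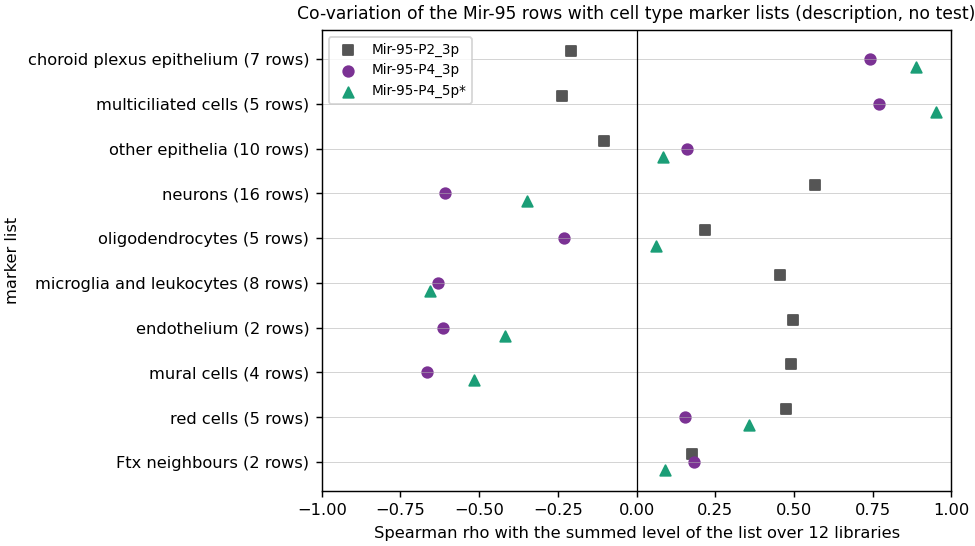
Spearman's rho (horizontal axis, no unit) between each Mir-95 row and the summed normalized counts of each marker list (vertical axis, with its number of rows) over 12 libraries; squares are Mir-95-P2_3p, circles Mir-95-P4_3p and triangles Mir-95-P4_5p*. Both Mir-95-P4 strands lie between 0.74 and 0.95 for the choroid plexus and multiciliated lists, where Mir-95-P2_3p lies at -0.21 and -0.24.

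No Mir-95 row differed between the lineages by the adjusted threshold. Among all 474 rows tested with limma on log2(value + 1), 0 had an adjusted p below 0.05 (0%) and 34 an unadjusted p below 0.05 (7.17%). Of the 3 family rows, 0 did so by either rule. Mir-95-P2_3p stood at 319 ± 43.7 normalized counts in exercised-lineage and 351 ± 46.2 in sedentary-lineage mice (SD, n = 6 each), a log2 difference of -0.14 (SE 0.11, limma adjusted p = 0.625), with 5 of 6 exercised mice below the sedentary median. Its 95% confidence interval, -0.38 to 0.10, leaves room for a difference of up to 1.30-fold. Without sedentary mouse 6 the difference was -0.07. With 1 code stem left out it ran from -0.25 (without R41) to -0.03 (without R31), and with scaling by library totals it was -0.05.

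Lineage differences of Mir-95-P4 had wide intervals. Mir-95-P4_3p stood at 228 ± 132 normalized counts in exercised-lineage and 225 ± 145 in sedentary-lineage mice, a log2 difference of 0.08 (SE 0.44, 95% confidence interval -0.87 to 1.03, limma adjusted p = 0.974). The interval reaches a 2.04-fold difference. The sign of the difference changed when exercised mouse 1 (-0.11), exercised mouse 3 (-0.12), sedentary mouse 3 (-0.10) or sedentary mouse 6 (-0.15) was left out, and the value rose to 0.34 without sedentary mouse 2. Mir-95-P4_5p* stood at 274 ± 197 against 335 ± 170, a log2 difference of -0.35 (SE 0.43, 95% confidence interval -1.27 to 0.57, limma adjusted p = 0.791), and left-out values ran from -0.65 without exercised mouse 3 to -0.18 without sedentary mouse 2. For both strands, 4 of 6 exercised mice lay below the sedentary median.

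Sets of mice with a shared code stem weighed on these values. All 3 mice of stem R41 had low Mir-95-P4_3p, from 116 to 147 normalized counts, below all 3 of stem R31, from 181 to 405. Stem S11 ran from 100 to 476 and stem S41 from 86.1 to 234. Mir-1298_5p was likewise low throughout R41, from 14859 to 27239. Stems lie within lineages, so no lineage difference can be taken within a stem. Without R31 the log2 difference of Mir-95-P4_3p was -0.53, and without R41 it was 0.69 (limma adjusted p = 0.608 and 0.622).

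With all libraries in, the Htr2c neighbours had differences below 0, like Mir-95-P4_5p* and unlike Mir-95-P4_3p, and still wider intervals. Mir-1298_5p had a log2 difference of -0.22 (95% confidence interval -1.75 to 1.30), Mir-448_3p of -0.16 (-1.59 to 1.26) and Mir-1912_3p of -0.21 (-1.73 to 1.30), with limma adjusted p from 0.955 to 0.960. Their signs were no firmer than that of Mir-95-P4_3p. Mir-1298_5p and Mir-448_3p were at 0.07 and 0.10 without sedentary mouse 1, and at 0.71 and 0.78 without R41. They were at 0.68 and 0.61 without S11, at -1.16 and -1.11 without R31, and at -1.13 and -0.94 without S41. In the choroid plexus list 7 of 7 rows were below 0 with 0 called (median -0.22), and in the multiciliated list 4 of 5 (median -0.10), where 238 of 474 rows in all were below 0 (median -0.00). These rows move together from library to library, so their shared sign is not separate evidence. Both Mir-374-P2 rows were above 0, with 0 called.

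**Figure D5:**
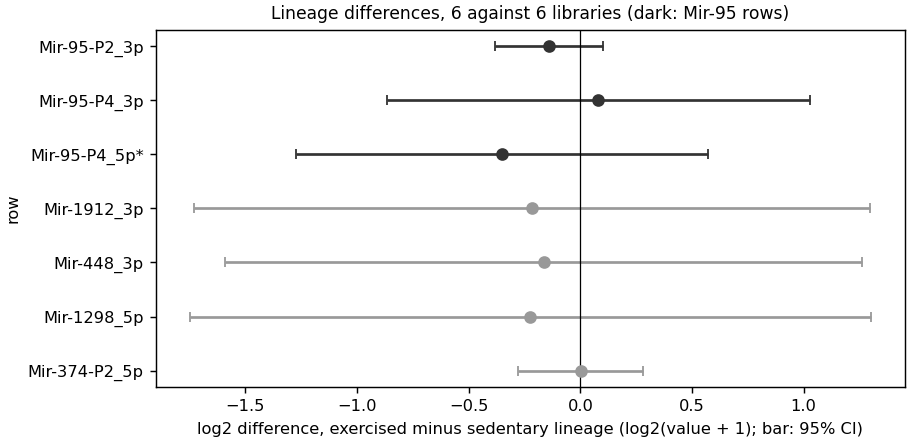
Log2 difference of the exercised minus the sedentary lineage (horizontal axis, on log2(value + 1), points) with its 95% confidence interval (bars) for the 3 Mir-95 rows (dark) and 4 other rows (grey) on the vertical axis, 6 against 6 libraries. All intervals shown include 0, and that of Mir-95-P2_3p, -0.38 to 0.10, is much narrower than those of the Mir-95-P4 strands.

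Ratios within a library gave no resolved lineage difference either. A ratio takes out what its rows share only where both change in equal proportion. Per log2 unit of Mir-1298_5p and Mir-448_3p, Mir-95-P4_3p rose by 0.54 and 0.59 log2, so ratios to them fell where they were high. Mir-95-P4_3p and Mir-95-P2_3p had r of -0.58 (n = 12), so they had no common rise and fall to take out. Relative to Mir-1298_5p, the log2 ratio of Mir-95-P4_3p was -7.57 ± 0.56 in exercised-lineage and -7.88 ± 0.92 in sedentary-lineage mice (SD, n = 6 each), a difference of 0.30 (two-sided exact permutation p = 0.494, adjusted 0.693 over 3 ratios), with 4 of 6 exercised mice above the sedentary median. Relative to Mir-448_3p it was -1.92 ± 0.52 against -2.17 ± 0.76, a difference of 0.24 (exact permutation p = 0.519, adjusted 0.693), again with 4 of 6 above. Relative to its paralogue Mir-95-P2_3p it was -0.66 ± 0.92 against -0.88 ± 1.05, a difference of 0.22 (exact permutation p = 0.693, adjusted 0.693), with 2 of 6 above. The last of these asks directly whether the guide strands of the paralogues differ in their lineage effect. No ratio of Mir-95-P4_5p* was tested, and its own log2 difference was of the other sign (-0.35, against 0.08 for Mir-95-P4_3p). The ratio of Mir-95-P4_3p to Mir-95-P2_3p came to -0.07 without sedentary mouse 6, to -0.02 without exercised mouse 1 and to 0.50 without sedentary mouse 2. Left-out values of the first ran from 0.13 without sedentary mouse 1 to 0.60 without sedentary mouse 4, and of the second from 0.10 to 0.51 without the same 2 mice. Whole stems turned the sign of each. The first was -0.27 without S11, -0.023 without R41, 0.63 without R31 and 0.87 without S41. The second was -0.19, -0.10, 0.58 and 0.68 in the same order, and the ratio to Mir-95-P2_3p was 0.57, 0.93, -0.50 and -0.13.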

How the data were processed

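The authors deposited a signal that is never negative, namely reads of each mature miRNA strand after division by a size factor of the library. Bowtie 1.3.0, the build mm10 and DESeq2 are named in the submitters' processing notes; trimming, mismatches, multi-mapping reads and the row filter are not stated in these sources. In each library 100% of values were whole multiples, within 0.01, of 1 step, taken as 1 read to give depth. The smallest positive value stood for 2 to 6 reads, so no count model was used. Reads without molecular identifiers are not independent molecules, so counting errors cover counting only.

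Rows with a mean of at least 10 (474 of 513) were tested with limma 3.58.1 in R 4.3.3 (empirical Bayes with trend) on log2(value + 1), a scale that understates differences of low rows, with Benjamini-Hochberg adjustment over all rows and a threshold of 0.05. Ratios were tested by exact permutation over 924 assignments, two-sided. The code was tested on simulated data. Members, lists and comparisons were chosen with earlier results of these data known. Named are all family rows, both comparison rows, the 3 rows most like each family row by Spearman's rho, and the marker lists. Alternatives covered pseudocount, filter, scaling, a replicate block, left-out libraries and left-out stems. Same-numbered libraries of the 2 lineages did not deviate together (correlations of -0.17 to 0.15).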

Additional observations from a re-analysis of the deposited data

Results flagged for a closer look

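Mir-95-P2_3p in sedentary mouse 6, at 438 normalized counts, lay far above the other 5 mice of its lineage: its gap to the next mouse was larger than Dixon's 95% critical value for 6 samples (0.625 of the range) allows. Of 18 sets of 6 values looked at this way, 1 was so marked, and chance marks about 1 in 20. That library also held the lowest Mir-95-P4_3p and Mir-1298_5p values of the 12.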

How the results depend on the processing

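No alternative gave a called row, in the family or among all rows. The edgeR, DESeq2 and TMM alternatives were not run, since whole reads were not taken as recovered. Left-out ranges of the log2 difference were -0.20 to -0.07 for Mir-95-P2_3p, -0.15 to 0.34 for Mir-95-P4_3p and -0.65 to -0.18 for Mir-95-P4_5p*. Those of the log2 ratio of Mir-95-P4_3p were 0.13 to 0.60 to Mir-1298_5p, 0.10 to 0.51 to Mir-448_3p and -0.072 to 0.50 to Mir-95-P2_3p. Signs also turned without whole stems, and fewer mice entered those fits. Mir-95-P4_3p was at -0.53 without R31 and -0.26 without S41, and Mir-95-P4_5p* at 0.16 without R41 and 0.15 without S11. The ratio to Mir-1298_5p was -0.023 without R41 and -0.27 without S11, that to Mir-448_3p -0.10 and -0.19, and that to Mir-95-P2_3p -0.50 without R31 and -0.13 without S41. Scaling by totals moved the median of all rows from -0.00 to 0.09. Rows at an unadjusted p below 0.05 numbered 57 under upper-quartile scaling (52 above 0), 16 without S11, 19 without S41 and 17 to 48 with 1 library left out. With a replicate block, which pairs mice by number alone, Mir-95-P4_3p stayed at 0.08 (adjusted p = 0.970) and 16 rows were at an unadjusted p below 0.05; 1 of 6 mice correlated best with its own number.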
